A study of Mus musculus with 9 samples.

Results

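The members described here are the genes for the proteins of the cytosolic ribosome, measured in cells picked as retinal ganglion cells. They were taken from the deposited table by name, as every gene named Rpl or Rps followed by a number together with Rplp0, Rplp1, Rplp2 and Rpsa, without pseudogene names holding "-ps" and without the S6 kinases. The rule found 94 of 50764 genes, 55 of the large and 39 of the small subunit by name. Of these, 77 form the standard set of ribosomal proteins (46 large, 31 small), and 17 are paralogs, retrocopies or other proteins with a similar name. Fau and Rack1 encode ribosomal proteins too but fall outside the name rule.

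The ribosome translates messenger RNA into protein. Its large subunit carries the peptidyl transferase centre and the exit tunnel, and its small subunit binds the messenger RNA and holds the decoding site. Each ribosomal protein is normally present once per ribosome, apart from the acidic stalk proteins, so cells make the set in a coordinated way. Many of these messenger RNAs begin with a short run of pyrimidines, the terminal oligopyrimidine tract, through which the mTORC1 kinase pathway controls their translation. In injured ganglion cells, mTORC1 activity is known to limit how far axons regrow.

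Wild-type adult male mice had received 1.5 µL of an AAV2 vector into the vitreous 14 days before the cells were taken. The optic nerve had also been crushed 14 days before the cells were taken. The vector coded for green fluorescent protein in the GFP group, for Olig2 in the Olig2 group and for Olig3 in the Olig3 group, with 3 libraries in each. Both factors belong to the basic helix-loop-helix class. Olig2 acts in oligodendrocyte and neural progenitor lineages, and Olig3 in neural progenitors. Beads coupled to an antibody to Thy1 enriched the ganglion cells, fluorescent cells were then picked singly, and a small pool was amplified for each library. The sources used here do not give the promoter of the vectors. They also do not say whether 1 or several animals gave the libraries of a group, and the p-values therefore cover only library-to-library spread, which may be technical.

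Libraries held 5355691 to 6979851 counts. Olig2 had 114, 97 and 21 counts in the Olig2 libraries, 0 in each GFP library, and 6, 4 and 0 in the Olig3 libraries. Counts of Olig3 were 172, 113 and 597 in its own group and 0 to 40 elsewhere, where vector and native transcripts cannot be told apart. The 21 ganglion cell markers made up 0.10 to 0.237% of the counts in the GFP group and 0.0168 to 0.0468% in the other 6 libraries, with 2 to 11 of the 21 at 0 in a library. The 18 rod markers made up 5.67 to 8.56% in the GFP libraries, 9.42 to 17.2% in the Olig2 libraries and 7.44 to 18.1% in the Olig3 libraries, with none at 0. The 10 B and plasma cell markers made up 0.224 to 0.874% in the Olig2 libraries and at most 0.00885% in the others. Defining markers of a cell type other than the labelled one were thus abundant. In such pools, fewer cells of a type and less RNA per cell cannot be told apart. Malat1, a nuclear non-coding RNA, was unevenly present. Olig2 libraries 2 and 3 held 11.7 and 6.15% of their counts in it and Olig3 library 2 held 8.54%, while the remaining 6 held 2.65 to 4.14%.

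The start sites of the genes were examined because the tract defines much of the known regulation of this gene family. A start was counted as holding a tract when its first transcribed base was C and at least 4 pyrimidines followed. By RefSeq starts on GRCm38.p6, 13 of the 57 standard members with a start in the table held one, which is 22.8%, against 813 of 27025 genes, or 3.01%. Among all members with a start the count was 15 of 69. The stretches below run from 20 bases before the start to 20 bases from it, with the longest pyrimidine run in capitals. Rps27 and Rps6 are shown as examples with a tract at the start. Rpsa, Rps2, Rpl37 and Rpl24 are shown because their values, like those of Rps27, are described in full further on, and these 4 had no tract at the RefSeq start:
Rps27 (chr3:90213629-90213668, minus strand): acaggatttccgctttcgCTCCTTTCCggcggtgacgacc
Rps6 (chr4:86857348-86857387, minus strand): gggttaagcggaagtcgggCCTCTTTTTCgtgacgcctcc
Rpsa (chr9:120127746-120127785, plus strand): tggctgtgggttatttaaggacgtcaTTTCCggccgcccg
Rps2 (chr17:24720043-24720082, plus strand): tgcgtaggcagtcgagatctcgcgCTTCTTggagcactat
Rpl37 (chr15:5116593-5116632, plus strand): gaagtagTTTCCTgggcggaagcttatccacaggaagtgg
Rpl24 (chr16:55966255-55966294, plus strand): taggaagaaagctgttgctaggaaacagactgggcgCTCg

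In Rps27 and Rps6 the run crosses the start, while in Rpsa it begins 6 bases and in Rps2 4 bases after the RefSeq start. In Rpl24 the longest run was 3 bases. A RefSeq start can lie a few bases from the site used in these cells, so a missing match says only that the letters are not at that position.

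The ribosomal protein genes were among the more abundant messages in every library, but their levels were far from equal. Levels are compared per length, as reads per kilobase of annotated exon, set against library totals as in CPM (counts scaled to a common total). The median over the 77 standard members was 31.2, against 3.58 over all 15609 genes tested. Of the 77, 43 lay in the top 10% of the genes tested and 2 below their median. Rpl4, a large subunit protein that lines the exit tunnel, was highest with a median of 305 (chr9:64173375-64178666, mm10). Rps3a1 followed with 233, the stalk base protein Rplp0 with 232, Rpsa with 202, Rps2 with 192 and Rpl3, a core protein of the large subunit, with 148. Rpl4 lay above Rps3a1, Rpsa and Rpl3 in all 9 libraries, above Rps2 in 8 and above Rplp0 in 7. Rps3a1 lay above Rplp0 in only 2 of the 9, so the order of this pair is not fixed by the medians. The order also depends on the length used. Per length of the longest annotated protein-coding transcript, Rpl4 stayed first with 398 and Rpl3 came next with 348. Then came Rpsa with 331, Rps2 with 321, Rplp0 with 283, Rpl7 with 235 and Rps3a1 with 233. The 6 members with the most counts held 34.7% of all member counts and the top 10 held 46.7%.

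At the other end, Rpl13a had a level per length of 0.523 and Rpl24, an intersubunit bridge protein, one of 0.615. The highest standard member stood 584-fold above the lowest, although their proteins are needed in equal number. Rpl13a had only 27, 24 and 8 counts summed over the GFP, Olig2 and Olig3 groups and did not pass the filter on low counts. Both genes are overlapped by exons of another annotated gene: 47.0% of the Rpl24 exon length by Gm28037 and 35.4% of that of Rpl13a by 3 genes, among them Gm45713. Gm28037 and Gm45713 had 0 counts in all 9 libraries. The sources used here do not say how reads in shared exons were counted, and the part of the overlap in the low values was not tested.

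**Figure D1:**
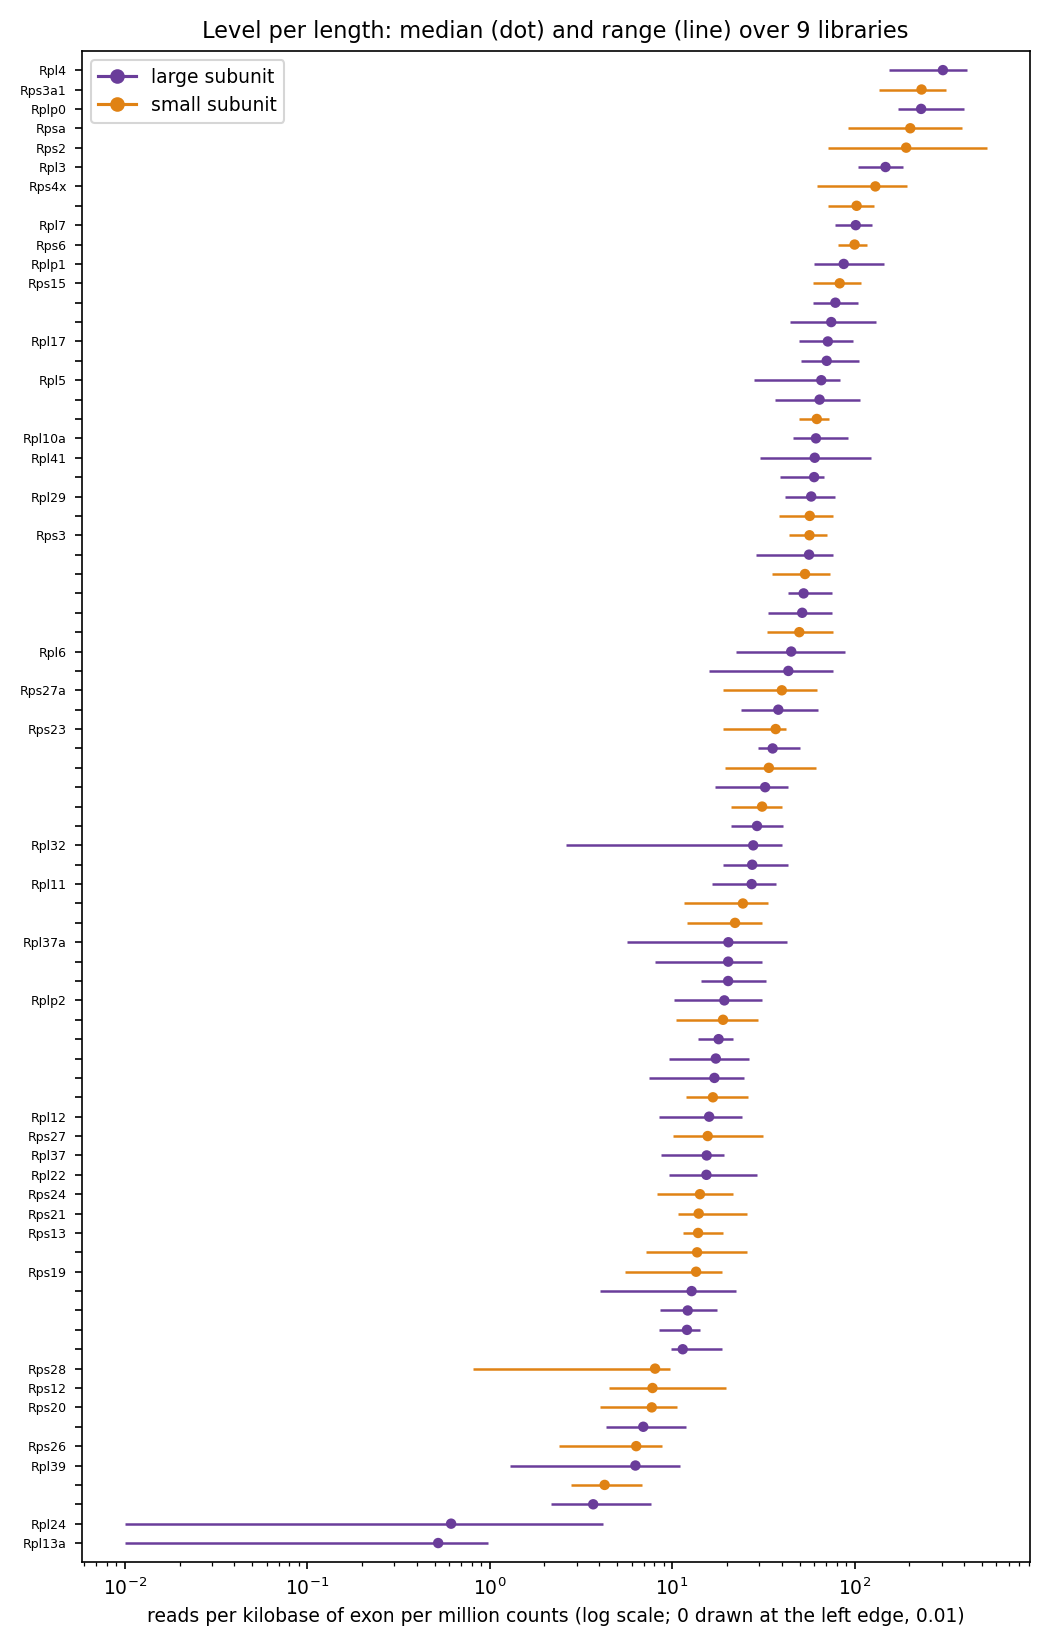
Level per length of the 77 standard ribosomal protein genes, in library-scaled reads per kilobase of exon on a log axis; dots are medians and lines the range over 9 libraries, purple for the large and orange for the small subunit, with labels for the genes named in the text. Most genes lie between about 10 and 100, with Rpl4 at 305 and Rpl24 and Rpl13a far below the rest.

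Ribosomal protein genes have many processed pseudogenes, and reads that match several places can be lost or moved between copies. Of the 77 standard members, 73 had at least 1 window of 100 bases with an exact copy in the annotated transcript of another gene. The median share of such windows was 33.9%, the highest was 91.1% for Rpl5, and 27 members had 50% or more. Rpl22, Rps3 and Rps21 were among those with none. For Rpl24 and Rpl13a, the lowest by level per length, it was 80.1 and 55.2%, and the part of this in their low values was not tested. Over the 77 members the share had a Spearman correlation of 0.022 with the level per length, a description across genes of the same libraries. The 436 pseudogenes that share a window with a member held 0.0191 to 0.0284% of the counts per library. Another 41 genes that share a window held 0.063 to 0.0953%. Counts of members with many shared windows are uncertain, and reads left uncounted because they match several places do not show in these values.

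A lower share of the reads fell on ribosomal protein genes in the Olig2 and Olig3 groups than in the GFP group. In the GFP libraries the members took 0.904, 0.839 and 1.16% of all counts. In the Olig2 libraries they took 0.781, 0.714 and 0.821%, and in the Olig3 libraries 0.773, 0.583 and 0.716%. All 6 libraries with a factor lay below all 3 GFP libraries, and GFP library 3 stood above the rest. The share of rod markers was higher in most of these 6 libraries than in the GFP group, and the part of this in the ribosomal protein share was not tested. The group means were 0.968% ± 0.170 (SD, n = 3), 0.772% ± 0.0541 and 0.691% ± 0.0973. Olig2 stood at 0.797 times GFP and Olig3 at 0.713 times GFP. The two-sided exact permutation test gave p = 0.1 for each, the smallest value that 3 against 3 libraries allow, and 0.2 after Benjamini-Hochberg adjustment over the 6 tests of share and subunit ratio. Olig3 against Olig2 had a ratio of 0.895 with an exact permutation p of 0.3 (adjusted 0.36), and the libraries overlapped.

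The share depended on what the reads were divided by. TMM scaling, which sets the bulk of the genes equal between libraries, moved the shares to 0.789, 0.740 and 0.976% in the GFP group, 0.712, 0.920 and 0.993% in the Olig2 group and 0.730, 0.778 and 0.618% in the Olig3 group. On that scale Olig2 was no longer below GFP: the difference of Olig2 minus GFP was 0.0399 percentage points, and the exact permutation p was 0.9. For Olig3 minus GFP the difference was -0.126 points with an exact permutation p of 0.2, and the libraries overlapped. Without Malat1, Gm37376 on its opposite strand and the mitochondrially encoded genes in the total, the share was 0.877 times GFP for Olig2 (exact permutation p = 0.4, overlapping) and 0.743 times GFP for Olig3 (exact permutation p = 0.1, not overlapping). TMM factors were lowest in the 3 libraries richest in Malat1, at 0.750 to 0.826 against 1.06 to 1.19 in the other 6, and the part of these libraries' RNA makeup in the shares was not tested.

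Rpsa and Rps2, the 2 members with the smallest p in the downward direction against GFP, carried part of the difference in raw share. Of -0.196 percentage points for Olig2 minus GFP they held -0.0775, and of -0.277 for Olig3 minus GFP -0.0822. Because they were picked from these same data, leaving them out was bound to narrow the gap. Together they took 0.120, 0.138 and 0.219% of the counts in the GFP group, 0.0992, 0.0603 and 0.0854% in the Olig2 group and 0.0856, 0.0422 and 0.103% in the Olig3 group. With these 2 genes left out, the members stood at 0.853 times GFP with Olig2, where the libraries now overlapped (exact permutation p = 0.2), and at 0.759 times GFP with Olig3, where they did not (exact permutation p = 0.1).

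**Figure D2:**
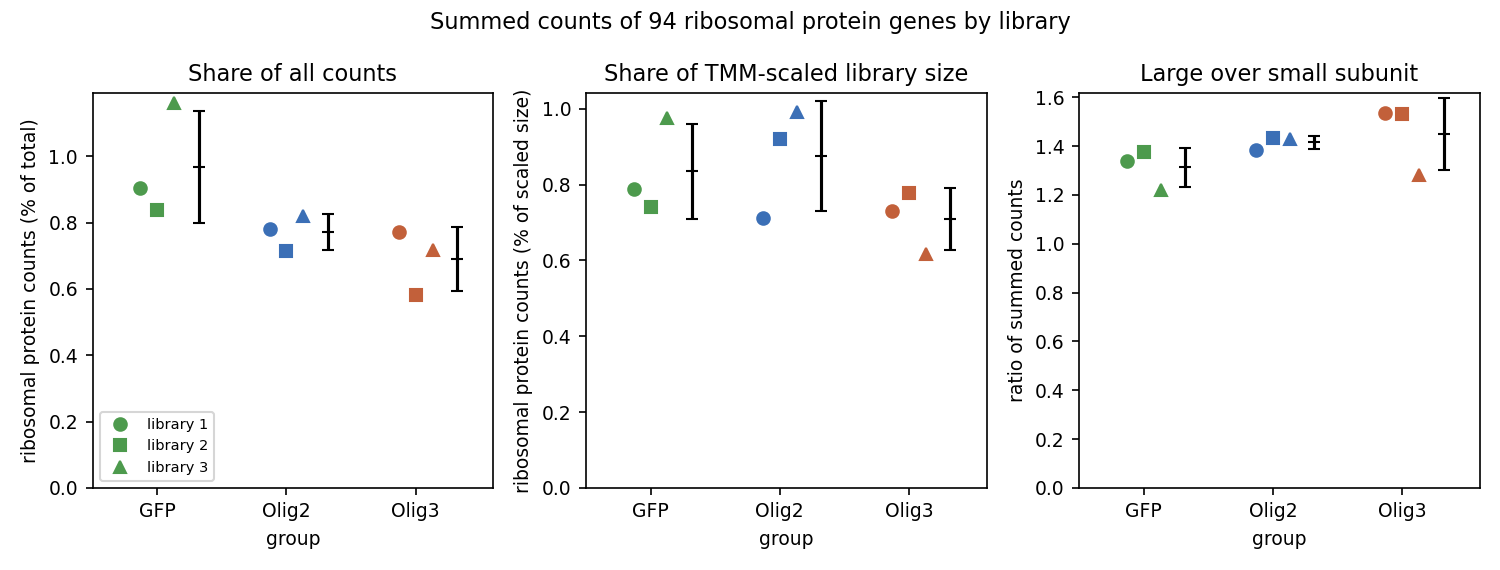
Summed counts of the 94 ribosomal protein genes by library: percent of all counts (left), percent of the TMM-scaled library size (middle) and ratio of large to small subunit counts (right); points are libraries, bars the mean ± SD of 3. On raw totals every Olig2 and Olig3 library lies below every GFP library, and on scaled sizes Olig2 libraries 2 and 3 reach the level of GFP library 3.

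The balance between the subunits shifted little. The ratio of large to small subunit counts was 1.34, 1.38 and 1.22 in the GFP group, 1.38, 1.43 and 1.43 in the Olig2 group and 1.54, 1.53 and 1.28 in the Olig3 group. On the log2 scale the means were 0.39, 0.50 and 0.53, with exact permutation p = 0.1 for Olig2 against GFP (no overlap, adjusted 0.2), 0.3 for Olig3 against GFP (adjusted 0.36) and 1 between the factors. The ratio rests on the abundant genes: the median over the members of each subunit gave differences of -0.063 for Olig2 against GFP and -0.025 for Olig3 against GFP, in the opposite direction.

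Gene by gene, no member changed past the threshold. Of the 94 members, 84 passed the filter on low counts, 76 of them standard. By edgeR's quasi-likelihood test with Benjamini-Hochberg adjustment over all 15609 genes, 0 of the 84 had an adjusted p below 0.05 in any of the 3 comparisons, where the background over all genes was 0.0513% for Olig2 against GFP, 0.205% for Olig3 against GFP and 0.0384% for Olig3 against Olig2. At an unadjusted p below 0.05, 1 member was higher (background 2.61%) and 1 lower (2.08%) for Olig2 against GFP. For Olig3 against GFP, 1 member was higher (5.76%) and 3 were lower (6.37%), and for Olig3 against Olig2, 0 were higher (2.07%) and 2 lower (3.05%). These counts lie below the background, so nothing particular to the members can be read from them. DESeq2 called 2 members for Olig3 against GFP, Rpsa with adjusted p = 0.0397 and Rpl32l with adjusted p = 0.0431, and edgeR without the filter called Rps2 with adjusted p = 0.0183. Over all genes, DESeq2 called 3.24% in that comparison and edgeR without the filter 1.89%, so these counts of members are near or below the background too.

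After TMM scaling, most members had a higher mean with Olig2 than with GFP and a lower mean with Olig3 than with Olig2, but the libraries overlapped. The median log2 CPM over the standard members was 5.56 to 6.10 in the GFP libraries, 5.65 to 6.39 in the Olig2 libraries and 5.16 to 6.05 in the Olig3 libraries, with a pooled SD within groups of 0.384. The log2 change was negative for 14 of the 76 standard members for Olig2 against GFP, for 52 for Olig3 against GFP and for 74 for Olig3 against Olig2. Over the 15609 genes tested it was negative for 7809, 8263 and 8424 in the same order. The median difference in mean log2 CPM was 0.27, -0.21 and -0.46 in these comparisons, against 0.057, -0.18 and -0.23 over all genes tested. The first 2 are smaller than that SD, which is the spread of single libraries, and the library medians overlapped in each comparison. Large and small subunit genes had similar medians, which were 0.26 and 0.31 for Olig2 against GFP and -0.46 and -0.49 for Olig3 against Olig2. Without scaling, on unscaled CPM, the count set against the library total, the direction for Olig2 turned. Then 50 of 76 members had a lower mean with Olig2 than with GFP (background 73.5%), 69 had a lower mean with Olig3 than with GFP (64.0%), and 66 a lower mean with Olig3 than with Olig2 (46.9%). Each pair of these comparisons shares the libraries of 1 group, so the counts are not independent. The values above GFP with Olig2 and below Olig2 with Olig3 rest on the same Olig2 libraries.

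Single libraries set much of this. After scaling, Olig2 library 2 gave the highest value for 29 of the 76 standard members, Olig2 library 3 for 26 and GFP library 3 for 15. The lowest value fell in Olig3 library 3 for 40 members, in Olig3 library 1 for 14 and in GFP library 2 for 10. Olig2 libraries 2 and 3 are among the 3 with the most Malat1, and Olig3 libraries 1 and 3 are the 2 with the fewest detected genes, 16188 and 14434 against 18184 to 21338. Without the 3 libraries richest in Malat1, the median log2 difference for Olig2 against GFP was -0.19. Without Olig3 libraries 1 and 3, the median for Olig3 against GFP was 0.24. Both medians then had the opposite sign, and both leave 1 library in the group.

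**Figure D3:**
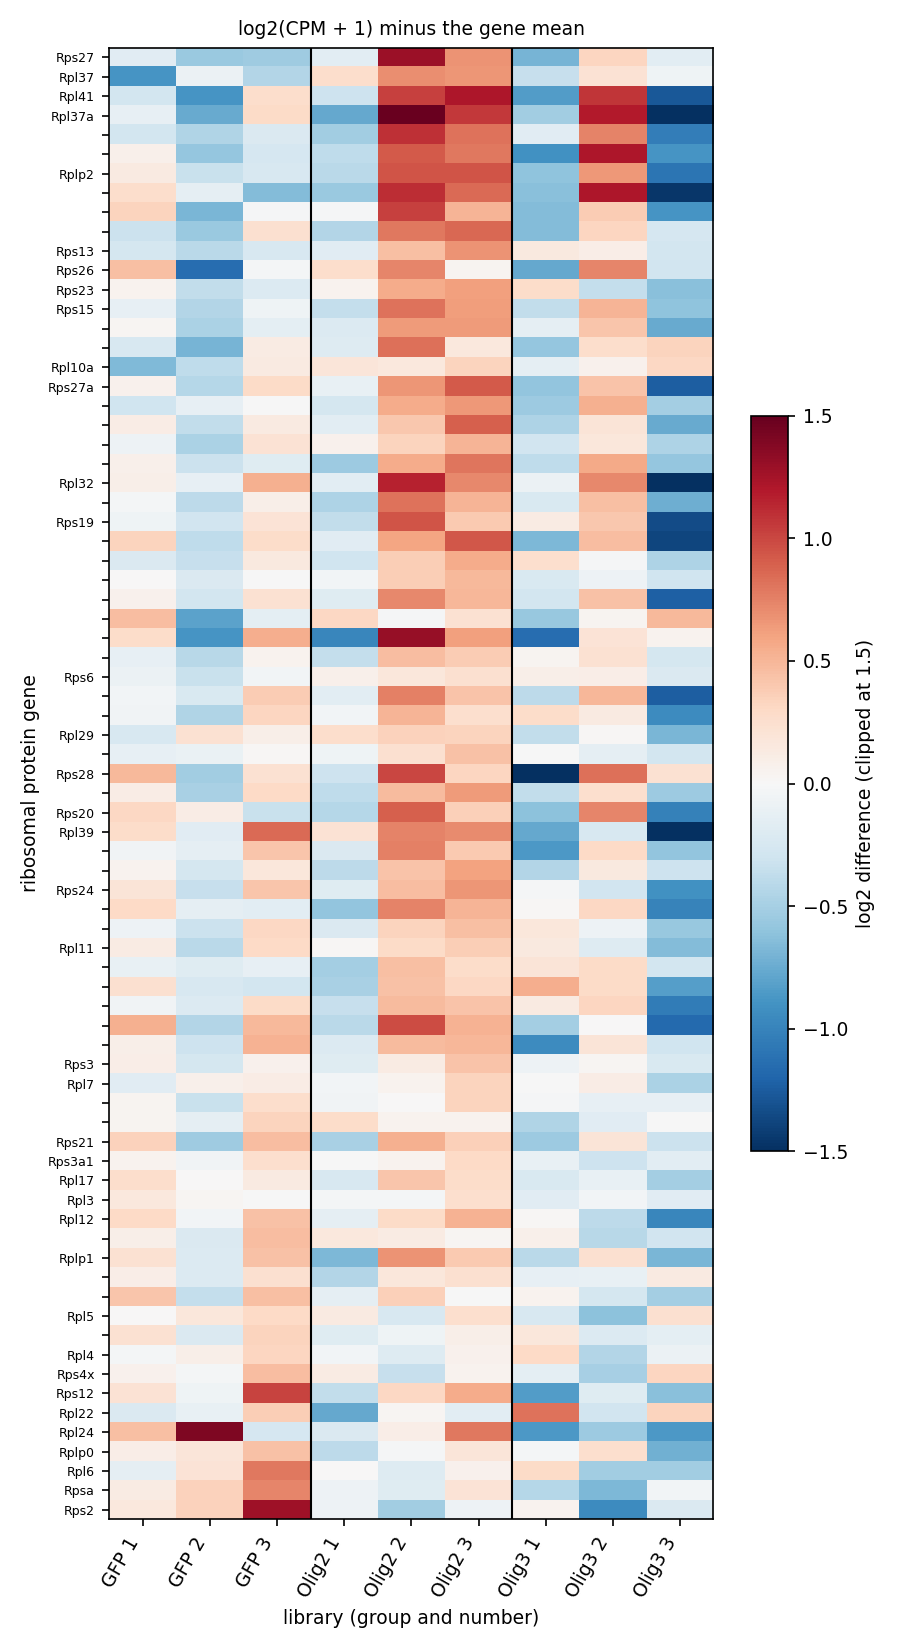
Expression of the 76 tested standard ribosomal protein genes in each of the 9 libraries, as log2(TMM-scaled CPM + 1) minus the mean of the gene, clipped at 1.5; genes are ordered by the difference of Olig2 and GFP means, and those named in the text are labelled. Olig2 libraries 2 and 3 and Olig3 library 2 are high for most genes in the upper part, Olig3 library 3 is low, and Rpsa and Rps2 at the bottom are highest in GFP library 3.

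**Figure D4:**
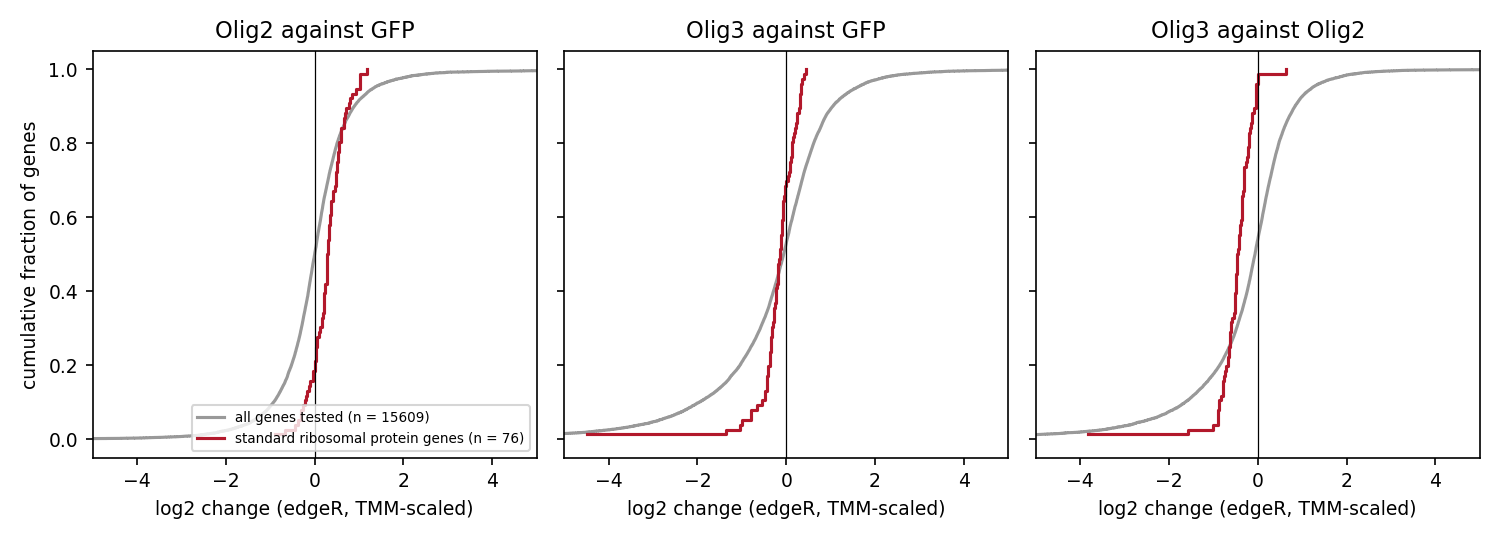
Cumulative distribution of the edgeR log2 change over the 76 standard ribosomal protein genes (red) and all 15609 genes tested (grey) in each comparison. The red curve lies right of the grey one around the median for Olig2 against GFP and left of it for Olig3 against Olig2, with a narrower spread in all 3 panels.

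Few members separated the groups library by library. For Olig2 against GFP, 6 standard members were higher in all Olig2 libraries than in all GFP libraries (background 8.47%) and 1 was lower (8.35%). For Olig3 against GFP, 0 were higher (7.18%) and 8 were lower (10.0%), namely Rpsa, Rps2, Rpl24, Rps12, Rpl17, Rpl39, Rps3a1 and Rpl3. Of these, Rpl24 had passed the filter on low counts only through GFP and Olig2 libraries. For Olig3 against Olig2, 0 were higher (4.41%) and 8 were lower (8.69%). Without scaling, the counts of lower members were 10 (background 18.0%), 17 (16.3%) and 14 (8.39%). The scaled counts are close to or below the background, and of the unscaled ones the last 2 are above it.

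Rpsa, the laminin receptor precursor that sits at the mRNA exit side of the small subunit, had the smallest p of all members for Olig3 against GFP. Its TMM-scaled CPM was 671, 785 and 1029 in the GFP libraries, 584, 543 and 714 in the Olig2 libraries and 457, 388 and 598 in the Olig3 libraries. All Olig3 libraries lay below all GFP libraries, while Olig2 overlapped with both. Olig3 stood at 0.581 times GFP, a log2 change of -0.78 (SE 0.246), with edgeR adjusted p = 0.261. For Olig2 against GFP the log2 change was -0.43 with adjusted p = 1.00. The direction was the same under all 22 alternatives, with log2 changes of -1.08 to -0.60 for Olig3 against GFP and edgeR, DESeq2 or voom adjusted p from 0.0397 to 0.593.

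Rps2, which lines the path by which messenger RNA enters the small subunit, had 378, 431 and 816 CPM in the GFP group, 320, 235 and 320 in the Olig2 group and 352, 175 and 291 in the Olig3 group. Every library with a factor lay below every GFP library. The log2 change was -0.89 (SE 0.333) for Olig2, with edgeR adjusted p = 0.858, and -0.99 (SE 0.334) for Olig3, with adjusted p = 0.283. GFP library 3 stood far above the other GFP libraries. Without it the log2 changes were -0.47 and -0.57. That library also had the largest share of Muller glia markers, 0.804% against 0.106 to 0.458% in the other 8, and the part of these cells in the Rps2 values was not tested. Of the Rps2 windows, 58.5% had a copy in another gene.

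Rpl37, a small zinc-binding protein of the large subunit, and Rps27, a zinc finger protein of the small subunit, were the members with the smallest p in the upward direction for Olig2 against GFP. Rpl37 had 12.8, 23.0 and 17.9 CPM in the GFP group, 29.7, 40.6 and 39.3 in the Olig2 group and 19.1, 28.6 and 23.4 in the Olig3 group. All Olig2 libraries lay above the rest, with a log2 change of 1.03 (SE 0.409) over GFP, edgeR adjusted p = 0.926. Rps27 had 14.7, 11.1 and 11.3 CPM in the GFP group, 14.9, 42.2 and 27.3 in the Olig2 group and 10.0, 21.2 and 14.9 in the Olig3 group. Its lowest Olig2 library barely passed the highest GFP library, and its log2 change of 1.18 had an edgeR adjusted p of 1.00. Rps13, which helps to bridge the subunits, had means of 49.7 against 31.1 CPM. In the downward direction Rpl6, a large subunit protein, had 123, 156 and 235 CPM with GFP and 136, 118 and 141 with Olig2, which overlap.

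For Olig3 against GFP, Rpl10a, a protein of the L1 stalk near the tRNA exit, had one of the smallest p in the upward direction. It had 97.7, 119 and 170 CPM in the GFP group, 177, 173 and 197 in the Olig2 group and 141, 163 and 193 in the Olig3 group. Its Olig2 libraries lay above all GFP libraries (log2 change 0.50, edgeR adjusted p = 1.00) and its Olig3 libraries overlapped with them (0.36, edgeR adjusted p = 0.593). Rpl12, at the base of the stalk that binds elongation factors, had 66.0, 52.2 and 72.9 CPM with GFP and 54.3, 40.6 and 26.7 with Olig3. These overlap, with a log2 change of -0.65 and an edgeR adjusted p of 0.455.

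Rpl32l is a short intronless copy of Rpl32 (chr10:20208490-20208888, mm10) that GENCODE release M21 lists as a pseudogene. It had 0.447, 0.379 and 0 CPM in the GFP group, 1.14, 4.75 and 1.07 in the Olig2 group and 9.83, 2.74 and 5.4 in the Olig3 group. All 6 libraries with a factor lay above the GFP libraries. Over the groups these are 6, 34 and 115 counts. On pooled counts and library totals, the ratio to GFP was 20.7 for Olig3 with a 95% counting interval of 9.24 to 57.7, and 5.82 for Olig2 (2.42 to 17.0), which covers counting error only. The edgeR adjusted p for Olig3 against GFP was 0.306. It passed the filter on low counts only through libraries with a factor, as the GFP libraries held 3, 3 and 0 counts. None of its windows of 100 bases had an exact copy in another annotated transcript, but 35.4% of its windows of 50 bases did. Rpl32 itself was lowest in the Olig3 group, with means of 25.2, 35.3 and 19.9 CPM in the GFP, Olig2 and Olig3 groups and overlapping libraries.

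Rpl24 had 1.49, 3.79 and 0.533 CPM in the GFP group, 0.568, 0.949 and 2.14 in the Olig2 group and 0, 0.249 and 0 in the Olig3 group. Over the groups these are 44, 20 and 1 counts. The single Olig3 count gives a ratio of 0.0246 to GFP with a 95% counting interval of 0.000609 to 0.144, and of 0.0526 to Olig2 (0.00127 to 0.329). The interval covers counting error only. The edgeR adjusted p was 0.363 for Olig3 against GFP. Rpl24 passed the filter on low counts only through GFP and Olig2 libraries, as the Olig3 libraries held 0, 1 and 0 counts. Of its windows of 100 bases, 80.1% had a copy in another gene.

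Between the factors, Rpl29, a heparin-binding large subunit protein, had the smallest p. Its CPM was 79.4, 84.0 and 83.4 in the Olig2 libraries and 50.8, 66.5 and 40.6 in the Olig3 libraries, with 55.3, 77.5 and 69.8 in the GFP libraries. The Olig3 libraries lay below all Olig2 libraries and overlapped with GFP. The log2 change of Olig3 over Olig2 was -0.65 (SE 0.262), edgeR adjusted p = 0.933. Rps24, a small subunit protein, had 75.0, 118 and 134 CPM with Olig2 and 84.1, 69.7 and 44.7 with Olig3, overlapping, with the same edgeR adjusted p. Rps27a, made as a fusion with ubiquitin, had 71.9, 124 and 149 CPM with Olig2 and 51.2, 105 and 32.4 with Olig3. In the upward direction Rpl22, an RNA-binding protein of the large subunit, had the smallest p, with a mean of 58.6 with Olig3 and 38.0 with Olig2, and Rpl4 was level at 543 and 542 CPM.

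**Figure D5:**
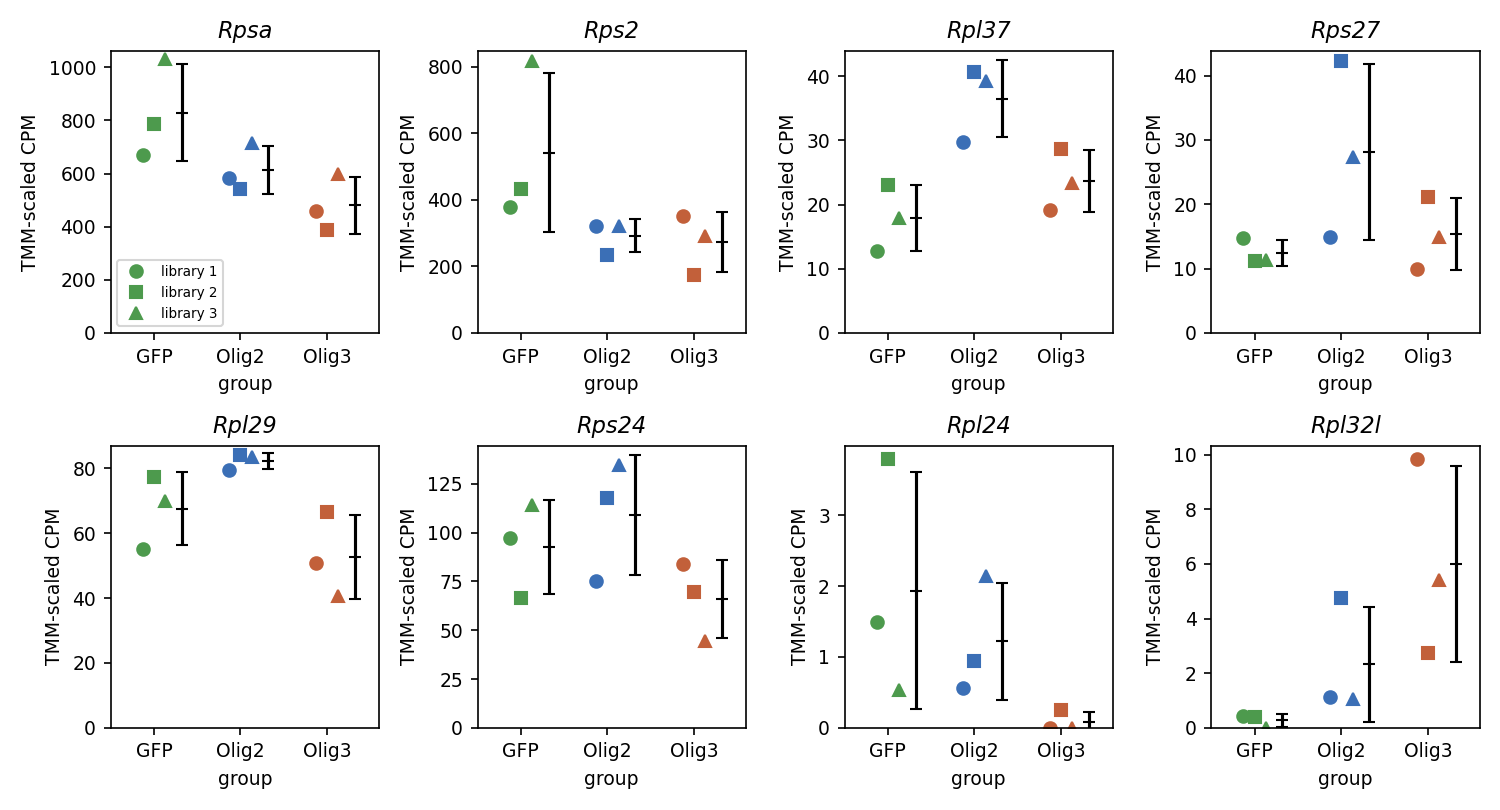
TMM-scaled CPM of 8 members in each library (linear axes from 0); points are libraries, bars the mean ± SD of 3. Rpsa and Rps2 are lower in the Olig3 libraries than in any GFP library, Rpl37 is highest in the Olig2 libraries, and Rpl32l is near 0 in the GFP group.

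By role, the values were mixed and no member passed the test. The stalk proteins Rplp0, Rplp1 and Rplp2, which recruit translation factors, had log2 changes of -0.31, 0.06 and 0.76 for Olig2 against GFP and -0.36, -0.42 and -0.030 for Olig3 against GFP. Rpl5 and Rpl11, which form a particle with 5S RNA that binds the p53 regulator Mdm2, had -0.10 and 0.20 with Olig2 and -0.33 and -0.23 with Olig3. Among the exit tunnel proteins, Rpl17 and Rpl39 were lower in every Olig3 library than in every GFP library (background 10.0%), and Rpl4 overlapped. The Olig3 and GFP means were 77.8 and 104 CPM for Rpl17 (edgeR adjusted p = 0.529) and 3.67 and 9.34 CPM for Rpl39 (edgeR adjusted p = 0.560). Of the proteins at the mRNA channel and decoding site, Rps3, Rps15, Rps23, Rps26 and Rps28 had log2 changes above 0 for Olig2 against GFP, in contrast to Rps2. Mean levels of Rps3, at the mRNA entry, were 252, 284 and 242 CPM for GFP, Olig2 and Olig3. Rps6, the target of the S6 kinases, had 151, 127 and 155 CPM in the GFP group, 168, 179 and 189 in the Olig2 group and 170, 172 and 137 in the Olig3 group. All its Olig2 libraries lay above all GFP libraries, with a log2 change of 0.31 that did not pass the test (edgeR adjusted p = 1.00).

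The members vary less within groups than other genes. The median SD of log2 CPM within groups was 0.465 over the 76 standard members, with a range of 0.116 to 1.16, and 0.685 over all genes tested. The members also had higher levels than most genes, and the part of the level in the spread was not tested.

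Among the 17 members outside the standard set, 8 passed the filter. Rps4l, a retrocopy of Rps4x listed as a pseudogene, was the most abundant of them per length, at 84.5 against 130 for Rps4x, and only 1.66% of its windows had a copy in another gene. It had 71.7, 79.1 and 59.0 CPM in the GFP group, 93.6, 92.8 and 85.9 in the Olig2 group and 53.3, 106 and 77.0 in the Olig3 group. All Olig2 libraries lay above all GFP libraries (edgeR adjusted p = 1.00), while Rps4x had a log2 change of -0.22. Rpl7l1, a paralog of Rpl7, stood at 13.7 CPM in Olig3 library 3, while the other 8 libraries held 55.3 to 113 CPM. Rpl22l1, the paralog of Rpl22, had means of 24.3, 17.6 and 15.0 CPM in the GFP, Olig2 and Olig3 groups, and Rps27l, the p53-responsive paralog of Rps27, 16.1, 17.0 and 12.4. Rps27rt, a retrocopy of Rps27, had 1.84, 5.56 and 2.45 CPM, with 89.5% of its windows shared. Rps19bp1, a binding partner of Rps19 and no ribosomal protein, had 19.0, 31.0 and 28.9 CPM. Rpl10l had no count in any library, which allows up to 0.430 to 0.560 CPM at 3 counts per library total. Rpl3l, Rpl36al and Rpl39l, known for muscle or testis expression in the first and last case, were at 0 in most libraries.

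The other genes of the translation machinery gave few calls. By edgeR with adjustment over all genes, none of the 8 elongation factors, 29 initiation factors, 36 ribosome biogenesis genes, 12 tested genes of RNA polymerase I, 22 tested genes of mTORC1 signalling or 77 tested mitochondrial ribosomal proteins passed in any comparison. Elongation factors took 0.436, 0.397 and 0.450% of the counts in the GFP libraries. Shares were 0.316, 0.190 and 0.294% in the Olig2 libraries and 0.295, 0.201 and 0.288% in the Olig3 libraries, below GFP in all 6. Eef1a1 alone took 0.261, 0.246 and 0.293% in the GFP libraries. Initiation factors lay below GFP as well, with 0.502 to 0.534% in the GFP libraries and 0.308 to 0.494% in the 6 others. On unscaled CPM, 73.5% of all genes tested had a lower mean with Olig2 than with GFP. With Olig3 it was 64.0%, so a lower raw share is not particular to these lists. After TMM scaling the median log2 changes for Olig2 and Olig3 against GFP were -0.095 and -0.34 for elongation factors and -0.13 and -0.050 for initiation factors. Eef1a1, which delivers aminoacyl-tRNA and carries a pyrimidine tract itself, had means of 2304, 1703 and 1375 CPM in the GFP, Olig2 and Olig3 groups and did not pass after adjustment. Of the 10 other messages known for such a tract, 1 passed: Vim, an intermediate filament gene also in the Muller glia list, fell with Olig3 from 346 to 43.7 CPM (log2 change -2.99, edgeR adjusted p = 0.0363). Mitochondrial ribosomal proteins had median log2 changes of 0.11, -0.0062 and -0.16 in the 3 comparisons, against 0.29, -0.14 and -0.46 for the standard cytosolic members by the same edgeR measure. Of the genes outside the name rule, Fau had a mean of 45.3 CPM in the GFP and 83.0 in the Olig2 group, and Rack1 163, 158 and 133 in the 3 groups.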

How the data were processed

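The authors deposited raw read counts for each gene, as whole numbers in 1 table of 9 libraries. Per the submitters' processing notes FastQC, HISAT2, HTSeq and the build mm10 were used; the sources used here do not give versions, the strand setting or the treatment of reads that match several places. The members and gene lists were chosen with earlier results of these data known.

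The test was that of edgeR 4.0.16 under R 4.3.3 (quasi-likelihood F test, TMM, filterByExpr, 1 model of group means, 6 residual degrees of freedom, Benjamini-Hochberg over 15609 genes), which was tested on simulated data. Member CPM is TMM-scaled, and shares use raw totals. Median differences use log2 CPM with a prior count of 2. Shares and ratios were compared by exact permutation tests in SciPy 1.17.1. Named members are the 4 with the smallest p per comparison and direction, the highest and lowest by level, and the role lists; others named because their libraries did not overlap were chosen after their values were seen. A member that the rule names is not reported here. Window copies were sought in GENCODE M21 transcripts of other genes, since no genome was used here. Alternatives were other scalings, DESeq2 1.42.0, limma 3.58.1 voom, filters, a replicate block and leaving out libraries. Leaving out the Malat1-rich and the gene-poor libraries was added after seeing the data.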

Additional observations from a re-analysis of the deposited data

How the results depend on the processing

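Over all alternatives run, 0 members were called for Olig2 against GFP and for Olig3 against Olig2. For Olig3 against GFP, DESeq2 called 2, edgeR without the filter called 1, and the other settings called 0, among them those without 1 library. At an unadjusted p, leaving out 1 library moved the counts most for Olig3 against Olig2, up to 23 of 77 lower standard members without Olig3 library 2 (13.7% of all genes), and for Olig2 against GFP, up to 11 of 77 higher without Olig2 library 1 (2.36% of all genes). The replicate numbers did not pair the libraries: same-numbered libraries correlated at -0.0634 to 0.113 over 9 pairs. With the replicate block 0 members were called in each comparison.

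The median log2 difference for Olig2 against GFP turned to -0.10 on library totals and to -0.19 without the 3 libraries richest in Malat1. For Olig3 against GFP it turned to 0.24 without the 2 Olig3 libraries with the fewest genes. Without 1 library the medians ranged from 0.15 to 0.48, from -0.37 to -0.01 and from -0.71 to -0.29 in the 3 comparisons. The share for Olig2 against GFP turned to 0.0399 percentage points on TMM-scaled sizes. The log2 subunit ratio turned to -0.063 and -0.025 by member medians against GFP, and between the factors it ranged from -0.015 to 0.12 without 1 library. Median window sharing was 47.9% at 50 bases and 26.3% at 150 bases. Of the members named, Rpl22 reached -0.017 without the gene-poor Olig3 libraries. Rpl4, level between the factors, took values of -0.072 with upper quartile factors, -0.000274 with TMM without members, -0.00879 with voom, -0.0158 at 10 CPM, -0.00987 with the block, -0.388 without the gene-poor libraries and -0.20 to 0.16 without single libraries. In all, 9 values of single members turned, 3 passed the threshold that had not (Rpsa and Rpl32l by DESeq2, Rps2 without the filter) and 466 kept direction and call. The cause of these changes was not tested.

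The common dispersion was 0.532 with 3 libraries a group, and exact permutation tests of 3 against 3 do not go below 0.1.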

Other observations

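Within the Olig2 group, libraries 2 and 3 differed from library 1 in the ribosomal protein genes by more than the Olig2 and GFP groups did. The median log2 difference was 0.74 over the 76 standard members, with 68 of 76 positive, against 0.015 and 50.9% positive over all genes tested. Within the Olig3 group, library 2 stood above libraries 1 and 3 by a median of 0.53, with 61 of 76 positive, against 0.28 and 61.7% over all genes. Over the 76 members the difference had a Spearman correlation with transcript length of -0.32 for Olig2 and -0.42 for Olig3. With the mean level it was -0.47 and -0.50. Transcript length is that of the longest annotated protein-coding transcript, which need not be the form made in these cells. Over all genes the correlation with exon length was -0.11 and -0.12. These are descriptions across genes of the same libraries, chosen after the values were seen. Rpl41, the shortest ribosomal protein, had 60.4 CPM in Olig2 library 1 and 154 and 175 in libraries 2 and 3, and 41.2, 158 and 30.5 in the Olig3 libraries. Rpl37a ran parallel, with 15.6, 77.6 and 57.9 in the Olig2 libraries and 18.6, 63.2 and 6.86 in the Olig3 libraries. Rpl3 had 445, 445 and 544 and then 405, 441 and 405. Rps20 ran parallel to Rpl41, with 21.7, 55.8 and 38.2 and then 18.9, 49.8 and 14.2. Its longest annotated protein-coding transcript has 3706 bases, against 582 for Rpl41, and which forms were present was not tested. The 3 libraries that were high are the 3 richest in Malat1, and the part of RNA quality or of cell type in this was not tested.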
